A study of Mus musculus with 2 samples.

Results

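Open chromatin was examined around 6 genes that mark macrophages, in RAW264 cells treated with RANKL and in RAW264 cells left without it. RAW264 is a mouse macrophage-like line, and RANKL (receptor activator of NF-kappaB ligand) is the cytokine that turns such cells into osteoclasts, the cells that resorb bone. The treated culture received GST-RANKL at 234 ng/ml for 24 hours, and each condition was 1 library, so every value below describes those libraries and none carries a replicate error. DNase-seq was the assay: DNase I cuts lightly digested nuclei at open sites, and stretches where the released fragments pile up are called as peaks, or hypersensitive sites. A peak was a member when it overlapped 1 of 6 given mm9 windows, which lie on chromosome 7 from 135150000 to 135310000 (Itgam), chromosome 18 from 36830000 to 36940000 (Cd14), chromosome 10 from 116660000 to 116770000 (Lyz2), chromosome 11 from 69430000 to 69530000 (Cd68), chromosome 3 from 83590000 to 83700000 (Tlr2) and chromosome 17 from 57450000 to 57680000 (Emr1). Of 16447 peaks in the RANKL list, 32 met this rule, and of 13492 peaks in the list without RANKL, 23 did.

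Macrophages and osteoclasts arise from the same myeloid precursors, and the 6 genes belong to the equipment by which macrophages are recognised. Itgam encodes CD11b, the alpha chain of the integrin Mac-1, which binds complement-coated particles, and Emr1 (now Adgre1) encodes F4/80, an adhesion-type receptor long used to stain mouse macrophages. Cd14 encodes a surface co-receptor that hands bacterial lipopolysaccharide to TLR4, and Tlr2 encodes a receptor for bacterial lipoproteins. Lyz2 encodes lysozyme M, an enzyme that cuts bacterial cell walls, and Cd68 encodes a heavily glycosylated protein of the lysosomal membrane. Open chromatin marks DNA that factors can reach, and it does not measure expression. RANKL acts through its receptor RANK, which activates NF-kappaB, AP-1 and NFATc1.

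The windows are wider than most of the genes. In the RefSeq gene table, built on GRCm38.p6 and used here for names, order and length only, Cd14 spans 1.75 kb, Cd68 1.96 kb, Lyz2 4.73 kb, Tlr2 5.55 kb, Itgam 55.9 kb and Emr1 125 kb. The protein-coding genes on either side were Trim72 and Itgax for Itgam, E230025N22Rik and Tmco6 for Cd14, 9530003J23Rik and Lyz1 for Lyz2, Mpdu1 and Eif4a1 for Cd68, Sfrp2 and Tmem131l for Tlr2, and Vav1 and Vmn2r120 for Emr1. An annotation on mm9 was not used here, so peaks are given by window and position. Whether a peak lies in a promoter, exon or intron, or belongs to a neighbour, was not determined.

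Promoter sequences, reaching from upstream of the start to just inside the gene, were found for 4 of the 6 genes (Itgam, Lyz2, Cd68 and Tlr2) in the RefSeq table of GRCm38.p6. The promoters of Tlr2, Cd68 and Lyz2 are printed because these windows held the most peaks of one list only. Capitals mark every match, on either strand, to letters of 3 motifs: GAGGAA, the core bound by the myeloid factor PU.1, TGAGTCA, bound by AP-1, and GGGANTTCC, bound by NF-kappaB.
Tlr2 promoter, GRCm38.p6 chr3:83841559-83841858, minus strand: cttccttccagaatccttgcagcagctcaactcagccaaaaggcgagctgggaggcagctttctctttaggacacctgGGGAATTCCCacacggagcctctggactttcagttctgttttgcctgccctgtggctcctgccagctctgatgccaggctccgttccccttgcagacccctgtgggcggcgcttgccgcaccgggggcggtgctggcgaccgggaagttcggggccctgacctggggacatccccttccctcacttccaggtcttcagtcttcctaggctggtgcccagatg
Cd68 promoter, GRCm38.p6 chr11:69666121-69666420, minus strand: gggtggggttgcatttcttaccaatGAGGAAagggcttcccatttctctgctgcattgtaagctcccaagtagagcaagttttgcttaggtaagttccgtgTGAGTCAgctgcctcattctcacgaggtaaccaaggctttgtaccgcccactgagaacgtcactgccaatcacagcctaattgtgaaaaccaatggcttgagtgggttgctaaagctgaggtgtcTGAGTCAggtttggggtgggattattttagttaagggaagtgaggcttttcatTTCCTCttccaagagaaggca
Lyz2 promoter, GRCm38.p6 chr10:117282223-117282522, minus strand: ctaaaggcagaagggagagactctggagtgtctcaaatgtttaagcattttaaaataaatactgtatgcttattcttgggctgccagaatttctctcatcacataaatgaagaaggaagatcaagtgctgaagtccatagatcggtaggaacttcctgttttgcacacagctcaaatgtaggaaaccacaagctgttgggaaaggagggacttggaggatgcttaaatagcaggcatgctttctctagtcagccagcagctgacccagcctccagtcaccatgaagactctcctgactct

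The Tlr2 promoter held an overlapping pair of NF-kappaB matches, starting at bases 79 and 80 counted from the 5′ end of the printed sequence. They are the same palindrome read on both strands. The Cd68 promoter held 2 AP-1 matches, at bases 102 and 227, and 2 PU.1 matches, at bases 26 and 280. The Lyz2 promoter held 0 exact matches to the letters of the 3 motifs, and the Itgam promoter, not printed, held 3 PU.1 matches. Other spellings of the motifs were not searched, so 0 matches does not mean that a promoter lacks a site for these factors. Among 32851 promoters of this length, 1.68% held the NF-kappaB letters, 5.20% the AP-1 letters and 28.3% the PU.1 letters. The letters were chosen after the promoters were seen, so these rates do not test whether the matches are unusual. A match is a description of the letters, and these sequences were not placed on the mm9 peaks.

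Taken over all 6 windows, most sites were found in both states, in shares close to those of the whole lists. Sharing means that 1 bp or more of a peak lay on a peak called in the other state. Of the 32 RANKL peaks, 22 were shared (68.8%, 95% Wilson interval 51.4 to 82.0%), against 65.7% of the whole RANKL list. Of the 23 peaks without RANKL, 16 were shared (69.6%, interval 49.1 to 84.4%), against 60.7% of that whole list. Both intervals hold the background share. Counting error is all they cover, and adjoining peaks are not independent. Each of the 6 windows held at least 1 peak in both lists and at least 1 shared site.

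Peaks of one list only numbered 10 of 32 with RANKL (31.2%, against 34.3% of the whole list) and 7 of 23 without RANKL (30.4%, against 39.3%). They were spread unevenly over the loci. The Tlr2 window held 5 of the 10 RANKL-only peaks, the Cd68 window 3 and the Cd14 window 2, while the Itgam, Lyz2 and Emr1 windows held 0. Without the Tlr2 window, 5 of 26 RANKL peaks were RANKL-only. Of the 7 peaks found only without RANKL, 3 lay in the Lyz2 window, 2 in the Cd68 window and 1 each in the Tlr2 and Emr1 windows. With 1 library per condition, and 1 to 11 peaks in a window, no test of a difference between loci was made.

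**Figure D1:**
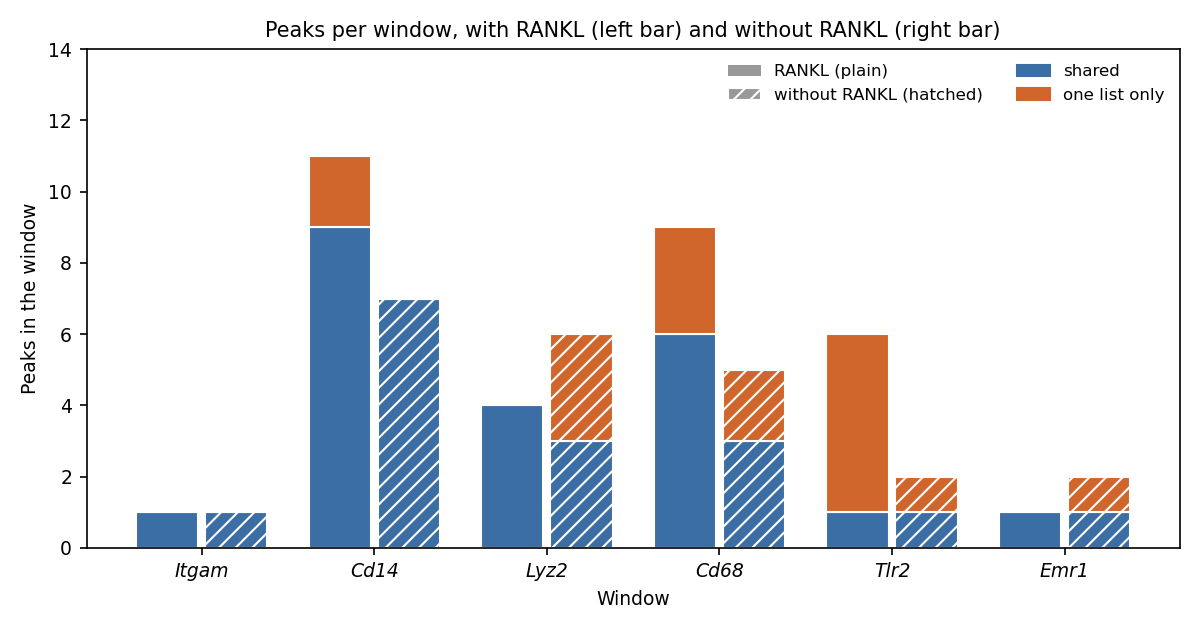
Number of peaks (vertical axis) in each of the 6 windows (horizontal axis), for the RANKL list in the left, plain bar and the list without RANKL in the right, hatched bar, split into peaks shared with the other list and peaks of one list only. The Tlr2 window had 6 peaks with RANKL, 5 of them in that list only, and the Lyz2 window had 6 peaks without RANKL, 3 of them in that list only.

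The loci were not alike in how many sites they held. Over the 820 kb of the windows there were 39.0 peaks per Mb with RANKL and 28.0 without RANKL, against 6.38 and 5.26 per Mb over chromosomes 1 to 19 and X. With peaks of a list under 1 kb apart merged, the windows held 23 regions with RANKL and 23 without RANKL. The Cd14 window held 100.0 and 63.6 peaks per Mb with and without RANKL, and the Cd68 window 90.0 and 50.0. The Lyz2 window held 36.4 peaks per Mb with RANKL and 54.5 without RANKL, and the Tlr2 window 54.5 and 18.2. The Itgam window, at 6.25 per Mb in both lists, was near the 6.98 with RANKL and 6.15 without RANKL of its chromosome. In the Emr1 window the rate was 4.35 per Mb with RANKL and 8.70 without RANKL, where chromosome 17 had 8.14 and 7.10. So the pair of genes that code for the classical surface markers CD11b and F4/80 had few peaks over long windows. The 4 shorter windows held more peaks per Mb than their chromosomes in both lists. Windows around other genes were not counted, so whether such rates are particular to these genes was not tested.

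**Figure D2:**
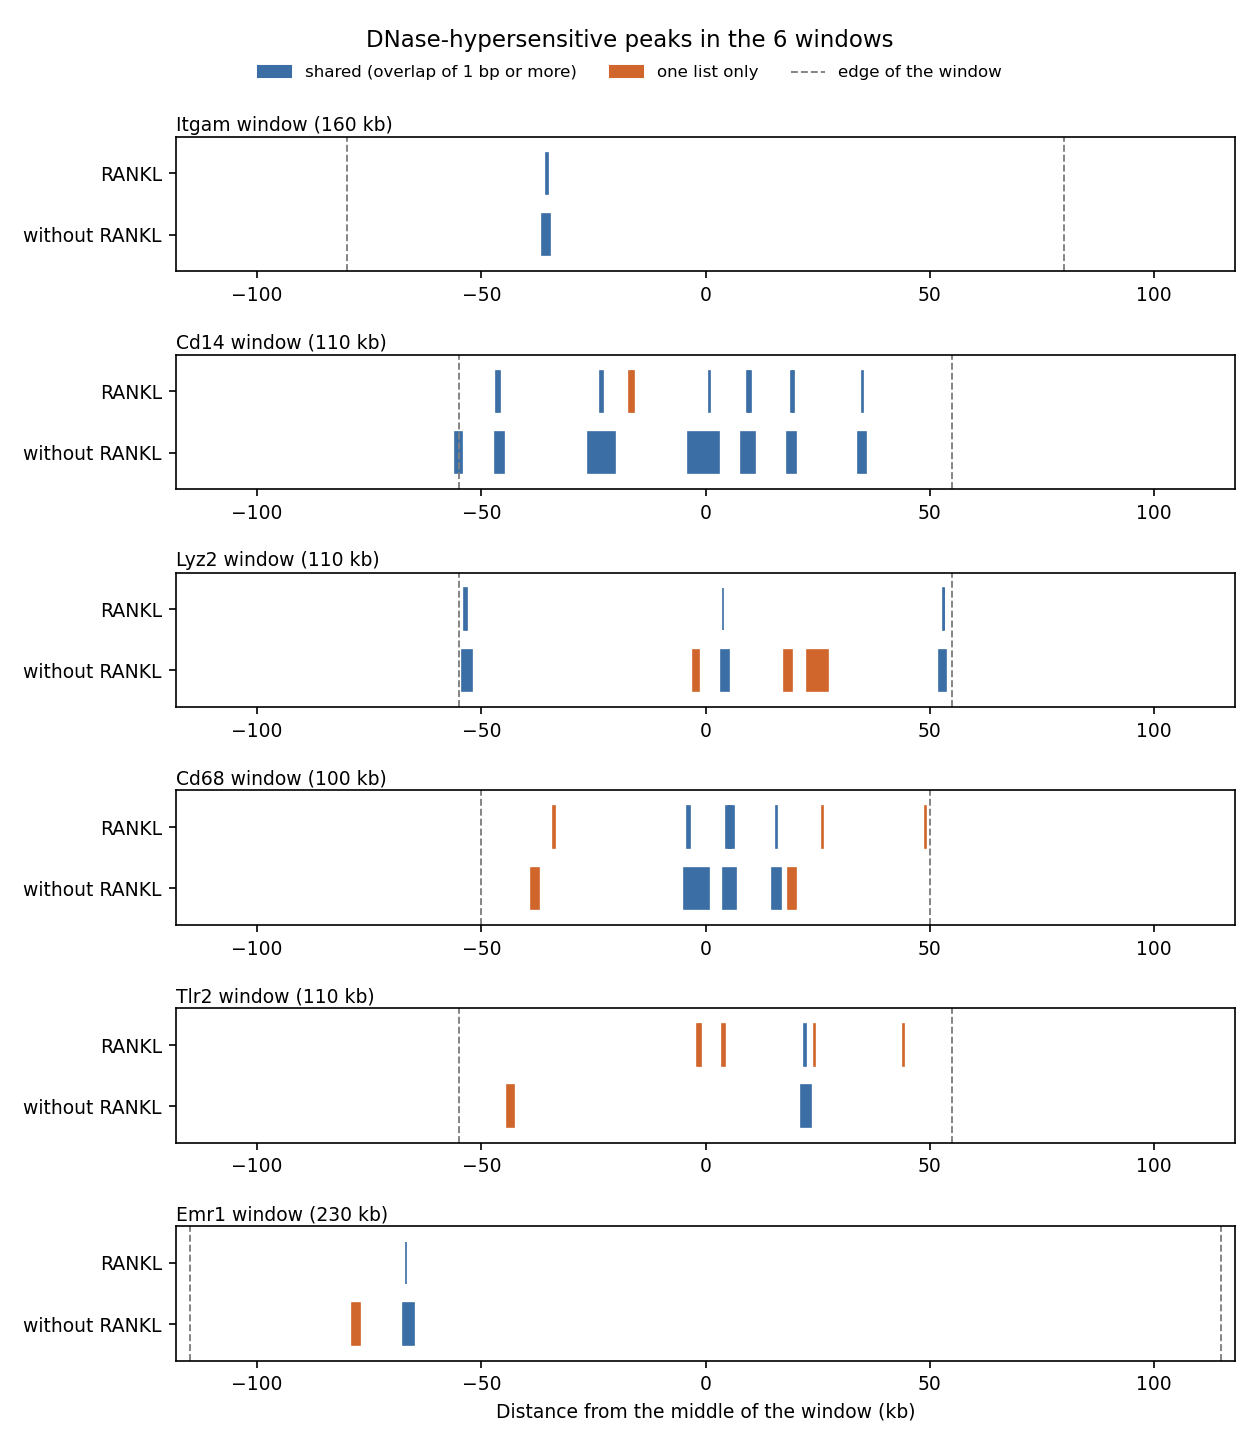
Position of every peak in the 6 windows, as distance in kb from the middle of the window (horizontal axis), with RANKL peaks in the upper row and peaks without RANKL in the lower row of each panel, drawn to scale apart from a thin outline. Peaks in blue overlap a peak of the other list and peaks in orange do not, and dashed lines mark the edges of the window. The Itgam window shows 1 shared site, and the Tlr2 window shows 5 RANKL-only peaks against 1 peak found only without RANKL.

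Each peak has a score from the authors, and below it serves to place a peak within its own list: a peak in the top 10% has a score among the highest 10% of that list. Scores and places are not compared between lists as a change, because they depend on depth and calling settings that may differ.

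Among the surface receptors, Itgam had 1 site, present in both states. With RANKL it was called at 135194518 to 135194954 (score 106, top 30.0% of the RANKL list). Without RANKL it was called at 135193623 to 135195208 (score 67.7, top 77.6% of that list). The narrow peak lay wholly inside the broad one, with the centres 320 bp apart. The rest of the 160 kb window held no peak in either list.

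Emr1, the F4/80 gene, also had few sites, and the only RANKL peak of its 230 kb window was weak. That peak lay at 57498091 to 57498257 (score 54.4, top 82.7% of the RANKL list), inside a peak without RANKL at 57497613 to 57499885 (score 94.6, top 54.4%). A further peak without RANKL, at 57486238 to 57487995, had no RANKL counterpart, and the nearest RANKL peak was 10.1 kb away. It was the stronger of the pair in its list, with a score of 113 (top 42.8%). In its 10% slice of the list by score, 63.3% of peaks were shared.

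Tlr2 had the largest count of RANKL-only peaks among the 6 windows, but not among the stronger peaks. With both lists reduced to the upper 50% by score, its window held 1, and the Cd14 and Cd68 windows 2 each. In the Cd14 window, 1 of the 2 was shared in the full lists and lost its partner to the cut. The RANKL-only share over all peaks under this cut was not computed. In the full lists the Tlr2 counts were as follows. With RANKL there were 6 peaks and without RANKL 2, and a single site was common to both. The shared site was called at 83667013 to 83667371 with RANKL (score 124, top 24.1%) and at 83666204 to 83668427 without RANKL (score 124, top 37.1%). The strongest RANKL-only site, at 83648754 to 83649404, scored 123 (top 24.2%), and it lay 16.8 kb from the nearest peak without RANKL. In its 10% slice of the RANKL list, 86.0% of peaks were shared.

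The other RANKL-only peaks of the Tlr2 window were of middle rank. An adjoining pair lay at 83643073 to 83643769 (score 70.9) and 83643776 to 83644063 (score 66.5), with 6 bp between them. Peaks at 83669114 to 83669333 and at 83688916 to 83689266 both scored 71.5. These 4 peaks sat between the top 52.5% and the top 58.4% of the RANKL list, in a slice where 64.0% of peaks were shared. The peak at 83669114 lay only 686 bp from the shared broad peak, so it counts as RANKL-only by a short distance, whereas the others lay 16.8 to 22.4 kb from any peak without RANKL. The peak found only without RANKL, at 83600759 to 83602329, was weak (score 56.8, top 90.3%), with the closest RANKL peak 40.7 kb off.

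The Tlr2 window lies in a stretch of chromosome 3, from 55 to 130 Mb, that held 909 peaks with RANKL and 471 without RANKL. This is a ratio of 1.93, against 1.25 on the rest of chromosome 3. The bounds of the stretch were set with its surplus of RANKL peaks known, so a high ratio there follows from the choice. In that stretch 46.2% of RANKL peaks were RANKL-only, against 42.5% on the rest of chromosome 3 and 34.3% of the whole list. Within 1 Mb to each side of the window there were 34 peaks with RANKL and 24 without RANKL, a ratio of 1.42. Of those RANKL peaks, 47.1% were RANKL-only. Of those without RANKL, 50.0% had no RANKL peak on them, against 25.5% in the stretch and 47.6% on the rest of chromosome 3. The whole list without RANKL had 39.3%. So near the window one-list sites were common in both directions, whereas over the stretch the share was higher for RANKL peaks. The part of the wider surplus in the Tlr2 peaks was not tested.

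Cd14, the lipopolysaccharide co-receptor gene, lay in the densest window, and its sites were largely common to the 2 states. Of 11 RANKL peaks, 9 were shared, and 7 of 7 peaks without RANKL were shared. The strongest RANKL peak of the window was nevertheless RANKL-only. It lay at 36867920 to 36868560, scored 219 (top 9.48%) and was 3.23 kb from the edge of the nearest peak without RANKL. In the highest 10% of the RANKL list 95.3% of peaks were shared, so a RANKL-only peak of this rank was uncommon. The other RANKL-only peak, at 36868584 to 36868940, followed after 23 bp and was weak (score 51.5, top 93.9%).

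The next strongest RANKL peaks of the Cd14 window lay inside broad peaks. One at 36861394 to 36862159 scored 183 (top 13.0%), within a peak without RANKL of 6010 bp at 36858685 to 36864694 (score 112, top 43.2%). One at 36838665 to 36839058 scored 142 (top 19.6%), within a peak without RANKL at 36838152 to 36840051 (score 229, top 8.48%), which also held a weak RANKL peak of score 54.8. The highest score without RANKL, 235 (top 7.86%), belonged to 36892923 to 36896045, which held a pair of RANKL peaks with scores of 130 and 113. Thus the highest score of each list in this window lay at a different site. That pair of RANKL peaks was 33 bp apart, and whether the order depends on how peaks were split was not tested.

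The 4 other peaks without RANKL in the Cd14 window ranged from the top 23.8% to the top 74.0% of their list. That at 36903172 to 36905224 (score 157) held a pair of RANKL peaks, and that at 36918931 to 36920685 (score 82.9) held 1. A peak at 36881147 to 36887987, near the middle of the window, was 6841 bp wide, the widest of the 23, yet it scored 71.2 and held 1 RANKL peak of 305 bp and score 53.5. The last, at 36829198 to 36830726 (score 111), crosses the left edge of the window, and the RANKL peak inside it, at 36829626 to 36829974, ends just outside and is not a member.

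Among the lysosomal genes, Cd68 had 9 RANKL peaks and 5 peaks without RANKL, with 6 and 3 of them shared. Its strongest RANKL peak, at 69475766 to 69476480 (score 248, top 7.30%), lay towards 1 end of a broad peak of 5510 bp without RANKL at 69475251 to 69480760 (score 183, top 16.6%). The centres were 1882 bp apart, the largest offset of the 16 shared sites. The strongest peak without RANKL, at 69483839 to 69486841 (score 209, top 11.1%), held 4 RANKL peaks, more than any other broad peak of the windows. These 4 scored 58.8, 61.2, 52.4 and 87.5 and filled 51.8% of it. The remaining shared site was weak in both lists, with a RANKL peak at 69495635 to 69495825 (score 51.7, top 93.0%) and a peak without RANKL at 69494766 to 69496823 (score 70.5, top 74.5%).

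One-list sites flanked this cluster on both sides. A RANKL-only peak at 69446052 to 69446386 scored 179 (top 13.5%), in a slice of the RANKL list where 92.5% of peaks were shared, and it lay 3.13 kb from a weak peak found only without RANKL at 69441130 to 69442922 (score 65.3, top 80.1%). The other RANKL-only peaks lay at 69506034 to 69506213 (score 56.5, top 76.3%) and at 69528935 to 69529147 (score 92.6, top 36.2%). The peak at 69498420 to 69500117 was found only without RANKL (score 55.6, top 91.9%). Both sites called only without RANKL were thus in the lowest 20% of their list by score.

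Lyz2, the lysozyme M gene, had more sites without RANKL than with it. All 4 of its RANKL peaks were shared, and 3 of its 6 peaks without RANKL held no RANKL peak. The strongest site, close to the left edge of the window, was strong in both lists. With RANKL it was called at 116661149 to 116661850 (score 417, top 1.96%) and without RANKL at 116660723 to 116662942 (score 291, top 3.55%). It is the highest-scoring member in either list.

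The middle of the Lyz2 window was where the lists parted. Peaks found only without RANKL lay at 116712083 to 116713574 (score 123, top 37.8%), 116732377 to 116734287 (score 51.3, top 98.0%) and 116737701 to 116742300 (score 81.5, top 64.5%). They were 5.27, 13.4 and 18.7 kb from the nearest RANKL peak. In the slices of the list that held them, 75.0%, 25.5% and 44.3% of peaks were shared, so only the first was of a rank at which most peaks had a RANKL counterpart. Between 116718980 and 116767912 the RANKL list had a gap of 48931 bp. Gaps of this size were not particular to that stretch. The RANKL gap from 116661850 to 116718849 was 56998 bp, and the list without RANKL had a gap of 49140 bp from 116662942 to 116712083.

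The other shared sites of the Lyz2 window were weak in both states. A RANKL peak of 132 bp at 116718849 to 116718980 (score 53.2, top 86.9%), the narrowest member, lay in a peak without RANKL at 116718536 to 116720125 (score 59.3, top 87.2%). Near the right edge, RANKL peaks at 116767912 to 116768085 (score 62.0) and 116768088 to 116768261 (score 60.7) were 2 bp apart, inside a peak without RANKL at 116767082 to 116768596 (score 51.0, top 98.5%).

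**Figure D3:**
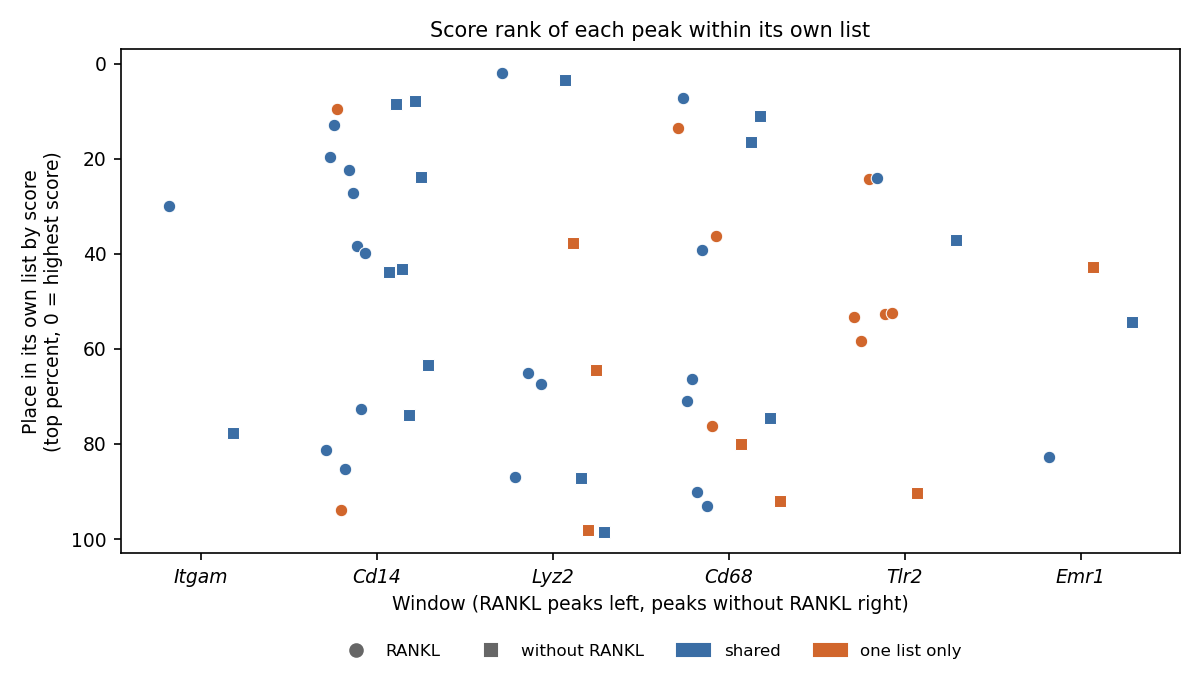
Place of every member peak within its own list by the authors' score (vertical axis, in top percent, with the highest scores at the top), by window (horizontal axis), with RANKL peaks as circles on the left and peaks without RANKL as squares on the right of each window. Points in blue are shared and points in orange belong to one list only. The Lyz2 edge site leads both lists at 1.96% and 3.55%, and the RANKL-only Cd14 site at 9.48% is the strongest member of one list only.

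In rank the members as a whole were ordinary. The top 10% of the lists held 3 of the 32 RANKL peaks and 3 of the 23 peaks without RANKL, and the median place was the top 52.5% and the top 54.4%. Shared RANKL members had a median score of 74.3 and RANKL-only members 71.5, where the whole RANKL list had medians of 91.9 and 58.0. Without RANKL, shared members had a median score of 112 and the others 65.3, where that whole list had 132 and 73.2. Of the RANKL-only members, 4 of 10 were in the upper 50% of their list by score, against 21.4% of all RANKL-only peaks, and of those found only without RANKL 2 of 7 were, against 21.5%.

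Member peaks differed in width between the lists as the lists themselves do. RANKL members were 132 to 766 bp wide (median 343 bp, whole list 233 bp), and members without RANKL were 1492 to 6841 bp wide (median 1911 bp, whole list 1738 bp). The widest RANKL member was thus narrower than the narrowest member without RANKL. The 16 shared broad peaks held 23 RANKL peaks, counting the 1 outside the Cd14 window, and 23 of 23 lay wholly inside. A broad peak was 3.16 to 22.4 times as wide as its strongest RANKL peak (median 6.60, whole list 5.87), and RANKL peaks filled a median of 19.5% of it (whole list 20.6%).

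Most shared broad peaks of the windows, 11 of 16, held a single RANKL peak. The other 5 (31.2%) held 2 or more, against 27.5% of all shared broad peaks, which is 16.7% of the whole list without RANKL. The share of closely spaced neighbours over the whole lists was not computed. In the windows, neighbouring RANKL peaks were under 1 kb apart in 9 of 26 gaps, the smallest being 2 bp. The smallest of 17 gaps without RANKL was 1596 bp. A count of RANKL peaks thus depends on how closely spaced peaks are counted: once peaks under 1 kb apart were merged, the Cd14 window held 7 regions with RANKL and 7 without RANKL, and the Tlr2 window 5 and 2.

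**Figure D4:**
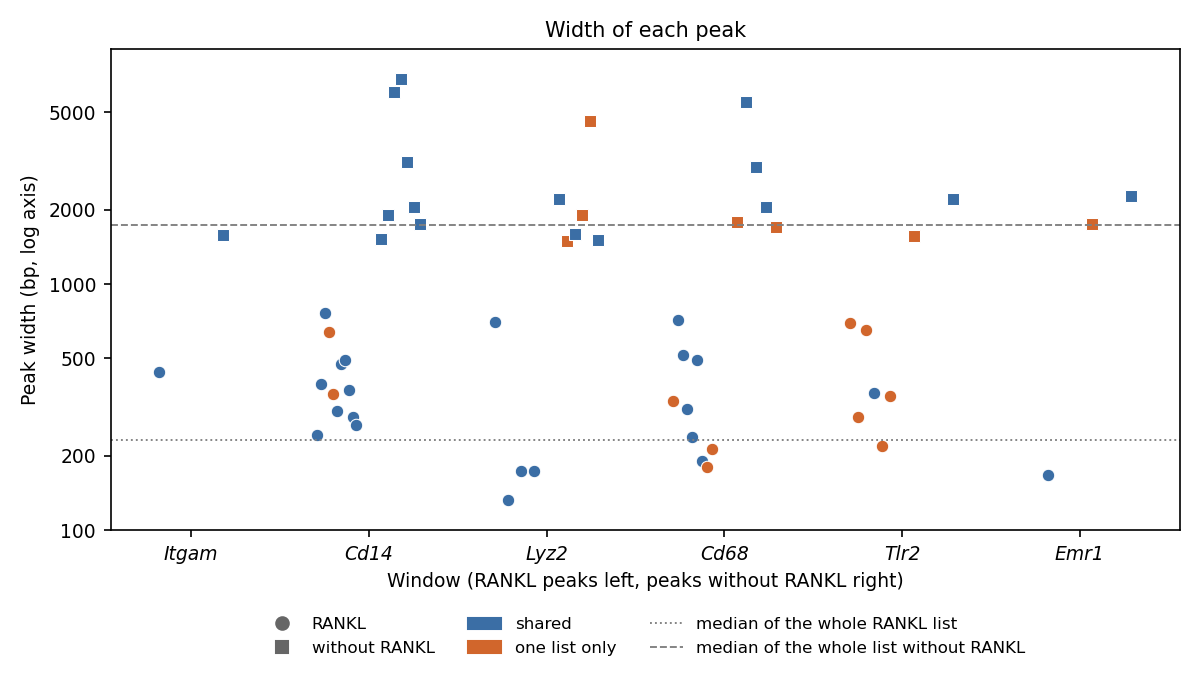
Width of every member peak in bp on a log axis (vertical), by window (horizontal axis), with RANKL peaks as circles on the left and peaks without RANKL as squares on the right of each window, and lines at the whole-list medians of 233 bp (dotted, RANKL) and 1738 bp (dashed, without RANKL). Points in blue are shared and points in orange belong to one list only. RANKL members reach 766 bp at most, and members without RANKL start at 1492 bp.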

How the data were processed

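DNase-seq was done on 2 libraries, 1 per condition. For each library the authors deposited a list of peaks, each with its position and a score. The submitters' processing notes name Bowtie2 (2.0.0), MACS2 and the build mm9. How the score was made, the threshold, any control and the read depth are not given in those sources, so no value has a depth-based interval. Positions are printed 1-based. Peaks overlapping a window were classed by a 1 bp overlap in pandas 2.3.3 under Python 3.11.15, with intervals from scipy 1.17.1. Class counts were the same with bedtools 2.31.1. Scores were ranked within each list, and cut into 10 equal slices. On simulated data the overlap rule classed 1200 of 1200 pairs correctly, partial overlaps and near misses included. The windows, genes and alternatives were chosen with earlier results of these data known. The rule for named genes was all 6, with every peak of a window holding 10 or fewer in a list, and otherwise the 3 highest scores and every peak of one list only. No p-value was computed. A planned list of other macrophage genes was not used, for want of mm9 positions, and the motif letters were chosen after the promoters were seen. Rates per Mb use the span between the first and last peak of each chromosome.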

Additional observations from a re-analysis of the deposited data

How the results depend on the processing

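Of 60 alternative values for the totals over the windows, 50 moved by no more than 1.5 times (counts) or stayed inside the main interval (shares). The main intervals are wide, so staying inside is a loose standard. The shared percent without RANKL counted as held at 52.2% under equal numbers of peaks, against 69.6% in the main setting. Some of the 50 could not move. The number of peaks in the windows does not depend on the overlap rule, and no peaks without RANKL there were close enough to merge. Of 132 values for single windows, 98 held in the same sense, with places in the ranking taken as held when identical. A reciprocal overlap of 50% left 32 RANKL peaks and 23 peaks without RANKL unshared (shared 0% of either list), since no narrow peak fills 50% of the broad ones. With the upper 50% of each list by score, the windows held 15 RANKL peaks, 6 of them RANKL-only, and 11 without RANKL, 2 of them without a RANKL counterpart. Only 4 of those RANKL-only peaks were RANKL-only in the full lists. The Itgam site and 1 Cd14 site were added because the cut removed their partners in the list without RANKL. Equal numbers of peaks from each list left 11 peaks found only without RANKL, because the weakest RANKL peaks were dropped. The one-list share over all peaks was not computed under the score cut or equal numbers, so these counts have no background at the same setting. Leaving out the Tlr2 window, chosen after the data were seen, left 5 RANKL-only peaks. Under the upper 50% the Tlr2 window held 1 RANKL-only peak and the Cd14 and Cd68 windows 2 each, so the Tlr2 window no longer held the most. Of the 2 in the Cd14 window, 1 was shared in the full lists. Merging peaks under 1 kb apart gave 23 regions in either list. The Lyz2 edge site is lost when the windows are narrowed by 20 kb, and its strongest peaks are then in the top 86.9% with RANKL and 37.8% without RANKL. No paired analysis was possible because each condition has 1 library, and for the same reason no replicate could be left out. Unknown depth limits every statement that a site is missing from a list.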

Other observations

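Strong sites stood outside some windows, within 50 kb of their edges. Within 50 kb to the left of the Itgam window, the strongest site was in the top 1.59% of the RANKL list (score 455, at 135110637 to 135111506) and in the top 1.09% of the list without RANKL (score 401, at 135109883 to 135112601), far above the single site inside the window. To the right of it, the RANKL list had a peak with no counterpart at 135331903 to 135331962 (score 112). Within 50 kb to the right of the Cd68 window, a site scored 309 with RANKL (top 4.39%, at 69572150 to 69573047) and 369 without RANKL (top 1.45%, at 69570836 to 69573590). Left of the Emr1 window, the strongest site scored 159 with RANKL (top 16.2%) and 183 without RANKL (top 16.6%). Around the Tlr2 window the flanks were poor, with 1 RANKL-only peak on the left (score 56.2) and 1 peak found only without RANKL on the right (score 51.1). Which genes these sites serve was not determined.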
